A study of Mus musculus with 6 samples.

Results

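The genes of elastic fibers and microfibrils were examined in mouse primary white adipocytes that carried miR-182-5p mimic or mimic control. Their members were chosen by gene symbol, with earlier results of these data known. They are elastin (Eln), the fibrillins Fbn1 and Fbn2, the fibulins Fbln1, Fbln2 and Fbln5, the microfibril-associated genes Mfap2, Mfap4 and Mfap5, and Emilin1. These are 10 of the 22609 gene symbols listed for each sample, and all 10 had enough reads to be tested. The adipocytes were grown and differentiated from the stromal vascular cells of inguinal fat of male C57BL6 mice. The comparison had 2 groups of 3 samples each, miR182 (labelled miR182iWAT1 to 3) and control (labelled CtriWAT1 to 3). Neither group carries any other allele or agent in the labels. The labels give an age of 3 weeks, electroporation and a control vector, whereas the methods of the study describe somewhat older mice and a mimic delivered with a lipid reagent. Neither source says whether the samples of a group are separate cultures or animals, so p-values measure only the spread between these samples, which may be technical. The libraries held poly(A) RNA, and their raw counts of reads per gene, as deposited, were the starting point.

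Elastic fibers give skin, vessels, lung and fat their recoil. Microfibrils of fibrillin are laid down before the elastin, tropoelastin is deposited on them with the help of fibulins, and lysyl oxidases crosslink it into an insoluble core. Microfibrils also hold latent TGF-beta, and fibrillin-1 is made as a longer chain whose cut end is asprosin, a hormone secreted by white fat. Adipocytes, their progenitors and smooth muscle cells can all express these genes.

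The treatment was a mimic of a microRNA, so the RefSeq sequence of the mouse miRNA is shown with its seed, bases 2 to 8, in capitals. It is encoded on the minus strand at chr6:30165962-30165986 of GRCm38.p6. The sequence that the methods of the study list for measuring it differs from this RefSeq entry, and the sequence of the mimic itself is not given there.
mmu-miR-182-5p: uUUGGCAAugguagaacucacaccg

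The DNA letters that pair with this seed are TTGCCAA. Searched on the transcript strand of the longest annotated 3′ untranslated region (3′-UTR) of each gene, they were found in 12.53% of the 12500 tested genes that have one. Among the 10 members they were found in 2, Fbn1 and Mfap4. The match in Fbn1 starts at base 474 of a 3′-UTR of 992 bases, inside the window chr2:125301096-125301125 on the minus strand of GRCm38. The match in Mfap4 starts at base 377 of 899, inside chr11:61488365-61488394 on the plus strand. A further window is shown for Ltbp2, a microfibril gene outside the members whose reads fell more than those of any member. Its match starts at base 149 of 1038, inside chr12:84784085-84784114 on the minus strand, and is followed by an A, which the Fbn1 and Mfap4 matches are not. Of the other genes read from lists below, Mfap3 also held a match followed by an A. Its log2 fold change, miR182 against control, was -0.00057. Pycr1 held a match without the A and had a log2 fold change of 0.32. The 30 bases around the Fbn1, Mfap4 and Ltbp2 matches are printed with the 7 matching letters in capitals.
Fbn1: gttaggaaccaaaTTGCCAAgtactcagtt
Mfap4: agcacctgtggcaTTGCCAAtcagctcttg
Ltbp2: agttctgccagccTTGCCAAatttttattt

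A match in these letters is a description and does not show that the miRNA acts there. The mean level of Fbn1 differed by -5.69% with the mimic and passed the adjusted p alone, while the mean level of Mfap4 was higher and passed no cutoff. None of Fbln1, Mfap2 and Fbn2, the members with the largest differences, holds these letters in its longest 3′-UTR. Other parts of the transcripts and other kinds of site are not covered by this description. The site that the study reports in Nr1d1 lies in the 5′ untranslated region, where no search was made here. Any action of the miRNA on these members was not tested.

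With the mimic, 1 member rose past both cutoffs used here and 1 fell. The cutoffs were a fold change of at least 1.5 and an adjusted p under 0.05 (quasi-likelihood test of edgeR, adjusted over the 13117 genes tested by the Benjamini-Hochberg method), and a gene past both is named called. Fbn2, the fibrillin best known from fetal tissue, was called higher, and Mfap2, which encodes the microfibril glycoprotein MAGP-1, was called lower. By adjusted p alone, 3 members were higher (Fbn2, Fbln5 and Emilin1) and 4 were lower (Fbln1, Mfap2, Mfap5 and Fbn1), while Eln, Fbln2 and Mfap4 passed no cutoff. The median log2 fold change of the 10 members was 0.0039 beside -0.0043 over all genes tested, and the median of its size was 0.150 beside 0.160. In bulk RNA, fewer cells of a type and less RNA per cell cannot be told apart.

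These counts stand against a background in which many genes differed between the groups. Of all genes tested, 7.45% were called, 1.97% higher and 5.48% lower. By adjusted p alone 46.7% passed, 23.2% higher and 23.5% lower, and the 3 values of 1 group lay wholly above or below those of the other for 54.8%. Among the members the same counts were 2 of 10 called, 7 of 10 by adjusted p and 7 of 10 with groups apart. With 10 genes, these shares are not set apart from the background by any test.

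**Figure D1:**
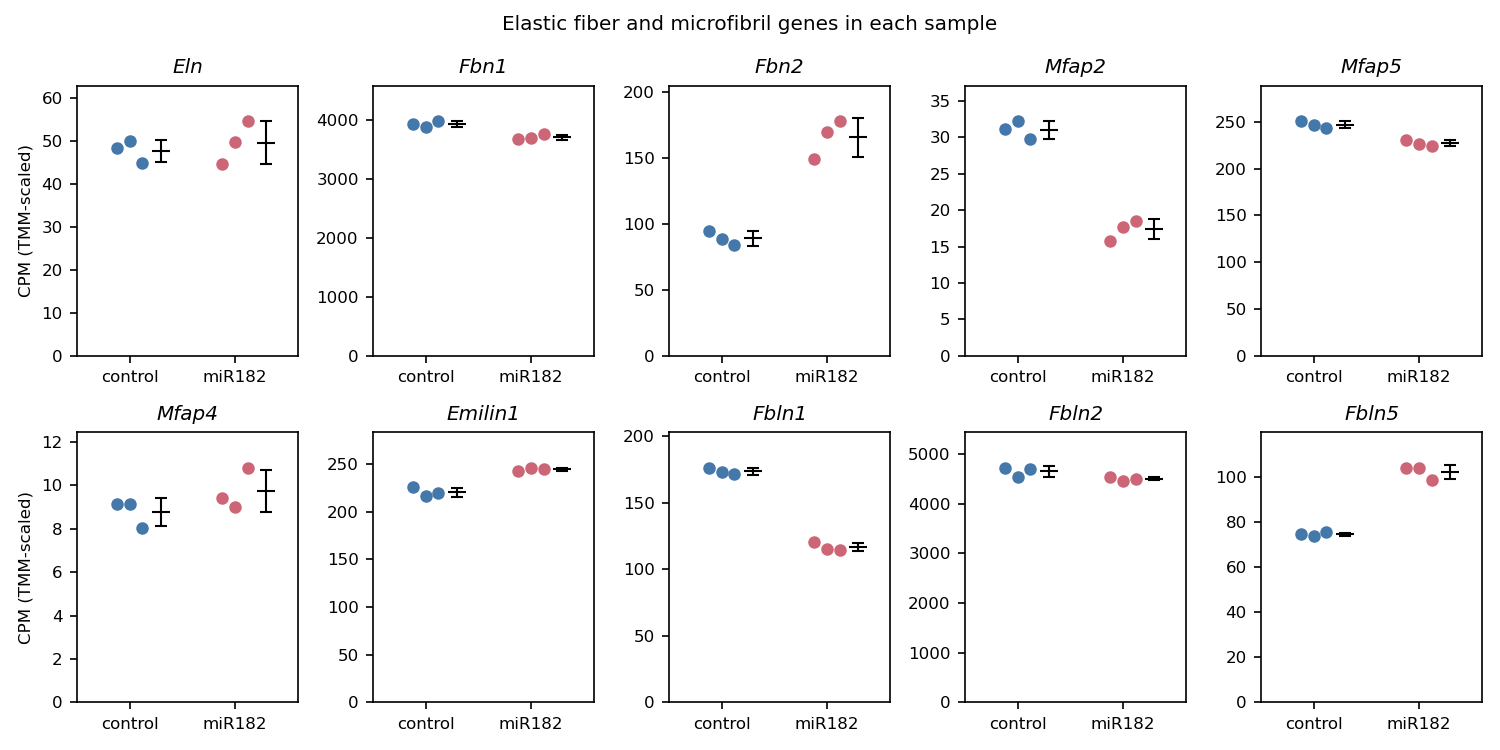
Each panel plots 1 member: reads per 1000000 of the TMM-scaled library size (CPM, y axis from 0) for the 3 control samples (blue) and the 3 miR182 samples (red), with the mean and SD as a black bar beside them. Fbn2 lies between 83.9 and 94.8 CPM in control and between 149 and 178 CPM in miR182, Mfap2 goes the other way, and the points of Eln, Fbln2 and Mfap4 overlap between the groups.

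Eln encodes tropoelastin, the elastic core itself (chromosome 5, 134702593 to 134747323 of GRCm38, minus strand). Its level was 48.4, 49.9 and 44.9 CPM in control samples 1 to 3 and 44.5, 49.6 and 54.5 CPM in miR182 samples 1 to 3. The groups overlapped, with both the lowest and the highest value among the miR182 samples. The means were 47.7 ± 2.54 and 49.6 ± 5.01 CPM (SD, n = 3 each), the log2 fold change was 0.055 (SE 0.065) and the edgeR adjusted p was 0.516. Without miR182 replicate 3 the sign turned, to -0.016. Of its 8098 exon bases, 267 are shared with Gm30003 on the opposite strand.

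Fbn1 encodes fibrillin-1, the main component of adult microfibrils (chromosome 2, 125300594 to 125507993, minus strand). Control samples held 3937, 3888 and 3986 CPM and miR182 samples 3684, 3694 and 3761 CPM. All miR182 samples lay below all control samples, but the gap was small beside the level. The log2 fold change was -0.085 (SE 0.031), from 3937 ± 48.8 to 3713 ± 41.7 CPM (SD, n = 3 each), with an edgeR adjusted p of 0.0392. This passed the threshold without miR182 replicate 1 (0.0219) but did not without control replicate 1, 2 or 3 (0.0761, 0.0637 and 0.154) or miR182 replicate 2 or 3 (0.152 and 0.0576). Of the 12128 exon bases of Fbn1, 2442 are also exon of Gm9913 on the opposite strand. Whether counting used the strand, and whether its annotation held Gm9913, is not given in the sources used here. Without strand, reads in the shared bases would be set aside as ambiguous or, if Gm9913 was not annotated, counted for Fbn1. The effect on the level of Fbn1 is therefore not known.

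Fbn2 encodes fibrillin-2, which shares the fibrillin-1 domain plan and is known mainly from development. Its level was 94.8, 88.9 and 83.9 CPM in control and 149, 170 and 178 CPM in miR182. The lowest miR182 sample lay well above the highest control sample. From 89.2 ± 5.49 to 166 ± 14.9 CPM (SD, n = 3 each) the fold was 1.86, the log2 fold change was 0.89 (SE 0.057) and the edgeR adjusted p was 2.06e-08. Leaving out any 1 sample gave values between 0.84 and 0.97, and the gene was called in all 6 such fits. Its p ranked 229 of 13117. Opposite-strand overlap is smaller here, with 129 of 13215 exon bases shared with Gm26507.

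The fibrillins thus differed in size and direction. The ratio of Fbn2 to Fbn1 reads was 0.0241, 0.0229 and 0.0210 in control and 0.0405, 0.0460 and 0.0473 in miR182. The 2 groups of ratios did not overlap, and their means differed by 0.98 on the log2 scale. Read counts also depend on length, so shares were computed per kilobase of exon. On that scale Fbn2 was 2.04 ± 0.135% of the fibrillin level in control and 3.93 ± 0.308% in miR182 (SD, n = 3 each). Fibrillin-1 transcripts remained the bulk of the pair in every sample. For ratios of 3 against 3 samples the exact two-sided permutation test cannot go below 0.1, which 4 of the 5 ratios examined reached, Fbn2 to Fbn1 among them (0.125 after adjustment over the 5).

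The microfibril-associated glycoproteins bind fibrillins. Mfap2 (MAGP-1, chromosome 4, 141010418 to 141015984, plus strand) held 31.1, 32.2 and 29.8 CPM in control and 15.8, 17.7 and 18.5 CPM in miR182. Each miR182 sample was lower than each control sample. The means were 31.0 ± 1.22 and 17.3 ± 1.37 CPM (SD, n = 3 each), a fold of 0.559 and a log2 fold change of -0.84 (SE 0.064), with an edgeR adjusted p of 1.27e-07. The call held in all 6 fits that left out 1 sample, between -0.89 and -0.78.

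Mfap5 (MAGP-2, chromosome 6, 122505845 to 122529290, plus strand), its closest relative, held 251, 247 and 243 CPM in control and 230, 226 and 224 CPM in miR182. The groups were apart here too, by a much smaller margin. The log2 fold change was -0.12 (SE 0.027) from 247 ± 3.61 to 227 ± 2.99 CPM (SD, n = 3 each), and the edgeR adjusted p was 0.00221. The ratio of Mfap5 to Mfap2 reads was 8.05, 7.66 and 8.18 in control and 14.5, 12.8 and 12.1 in miR182. Per kilobase, Mfap2 made up 27.1 ± 0.680% of the pair in control and 18.5 ± 1.39% in miR182 (SD, n = 3 each). Mfap2 was thus a smaller part of the pair in every miR182 sample than in any control sample, although Mfap5 itself was lower too (exact permutation p of the ratio 0.1, the smallest possible, and 0.125 adjusted).

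Mfap4 is a fibrinogen-domain protein that binds elastin and fibrillin, unrelated in sequence to the MAGP pair (chromosome 11, 61485431 to 61488900, plus strand). Its level was 9.15, 9.11 and 8.05 CPM in control and 9.39, 9.0 and 10.8 CPM in miR182. The groups overlapped, and of the 10 members it had the fewest reads. The means of 8.77 ± 0.628 and 9.73 ± 0.951 CPM (SD, n = 3 each) gave a log2 fold change of 0.15 (SE 0.091) and an edgeR adjusted p of 0.195. It shares 89 exon bases with Mapk7 on the opposite strand.

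Emilin1, found at the interface of elastin and microfibrils and known to restrain TGF-beta processing, lies on chromosome 5 (30913402 to 30921277, plus strand). It held 225, 216 and 219 CPM in control and 243, 246 and 244 CPM in miR182. The miR182 samples were all higher and lay closer to each other than the control samples did. Its log2 fold change of 0.15 (SE 0.027), from 220 ± 4.59 to 244 ± 1.77 CPM (SD, n = 3 each), was close to that of Mfap4, but its SE was smaller and its edgeR adjusted p was 0.000489.

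The fibulins link elastin to microfibrils and to cells, and the 3 members differed in direction. Fbln1, a component of the elastin core and of basement membranes (chromosome 15, 85205949 to 85286535, plus strand), held 176, 173 and 171 CPM in control and 121, 116 and 115 CPM in miR182. All miR182 samples were lower. From 174 ± 2.53 to 117 ± 3.25 CPM (SD, n = 3 each) the log2 fold change was -0.57 (SE 0.030) with an edgeR adjusted p of 2.86e-09. Its p ranked 123 of 13117, before that of any other member, but its size stopped just short of the 1.5-fold line at 0.585. Without miR182 replicate 1 it was -0.59 and the gene was called.

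Fbln2, which binds fibrillin and tropoelastin at the rim of the core (chromosome 6, 91212455 to 91272540, plus strand), held 4728, 4534 and 4701 CPM in control and 4534, 4469 and 4510 CPM in miR182. The ranges met at 4534 CPM. With 4654 ± 105 and 4504 ± 33 CPM (SD, n = 3 each) the log2 fold change was -0.047 (SE 0.033) and the edgeR adjusted p was 0.259.

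Fbln5 binds tropoelastin, lysyl oxidase-like 1 and integrins, and mice without it have disorganized elastic fibers (chromosome 12, 101746565 to 101819055, minus strand). It held 74.7, 74.1 and 75.5 CPM in control and 104, 104 and 98.9 CPM in miR182. The miR182 samples were all higher, opposite to Fbln1. The means were 74.8 ± 0.715 and 102 ± 3.07 CPM (SD, n = 3 each), a fold of 1.37, and the log2 fold change of 0.45 (SE 0.033) had an edgeR adjusted p of 8.64e-08, below the fold cutoff.

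The ratio of Fbln5 to Fbln1 reads was 0.423, 0.428 and 0.440 in control and 0.865, 0.901 and 0.864 in miR182. This difference of 1.03 on the log2 scale was the widest of the 5 ratios examined. The ratio of Fbln2 to Fbln1 went from 26.8 ± 0.618 to 38.5 ± 0.901 (SD, n = 3 each), and that of Eln to Fbn1 from 0.0121 ± 0.000790 to 0.0133 ± 0.00121 with overlapping samples (exact permutation p 0.3). Per kilobase, Fbln2 dominated the 3 fibulins with 93.5 ± 0.123% in control and 94.4 ± 0.127% in miR182. In the small remainder, Fbln1 went from 5.09 ± 0.111% to 3.58 ± 0.0795% and Fbln5 from 1.39 ± 0.0221% to 1.98 ± 0.0607% (SD, n = 3 each).

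**Figure D2:**
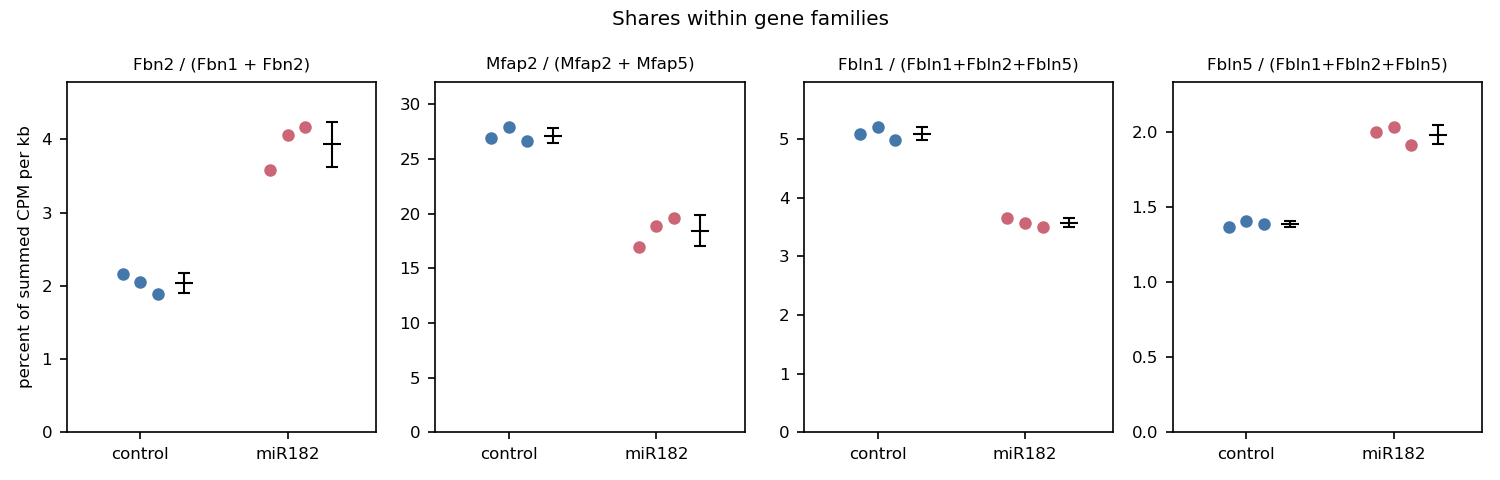
Shares of the summed CPM per kilobase of exon (percent, y axes from 0) in the 3 control (blue) and 3 miR182 (red) samples, with mean and SD in black, for Fbn2 among the fibrillins, Mfap2 beside Mfap5, and Fbln1 and Fbln5 among the 3 fibulins. In all 4 panels the groups are apart: the Fbn2 and Fbln5 shares are higher in miR182, and the Mfap2 and Fbln1 shares are lower.

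**Figure D3:**
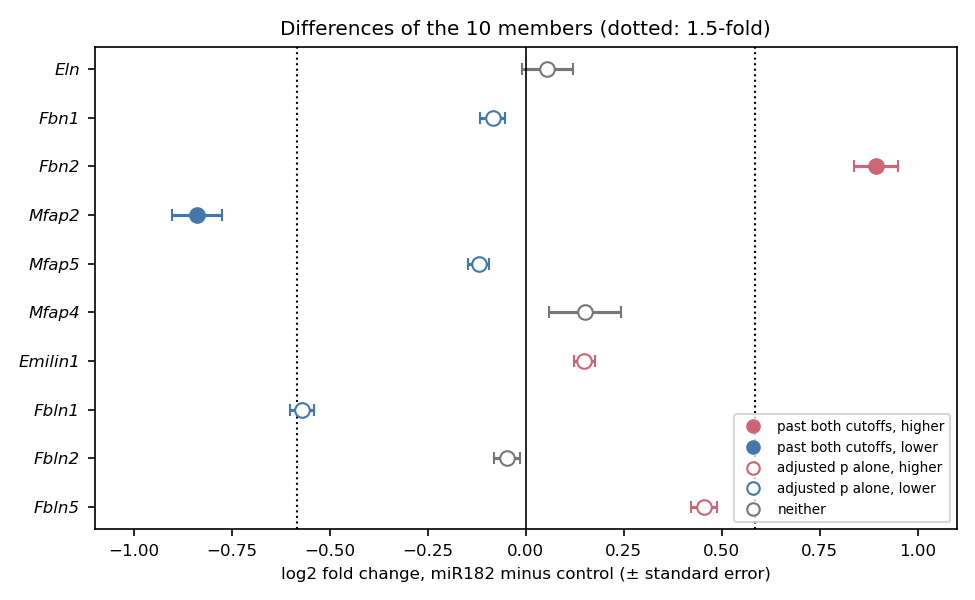
Log2 fold change of miR182 against control with its standard error (x axis) for each member, with dotted lines at the 1.5-fold cutoff. Filled points passed both cutoffs (Fbn2 at 0.89 and Mfap2 at -0.84), open coloured points passed the adjusted p alone, and grey points passed neither. Fbln1 sits just inside the left line at -0.57.

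Levels could be ranked between genes only per kilobase of exon, using the union of annotated exons, so the order depends on that annotation. In control the order was Fbln2 (731 ± 16.5 CPM per kb), Fbn1 (325 ± 4.02), Mfap5 (68.8 ± 1.0), Emilin1 (44.6 ± 0.929), Fbln1 (39.8 ± 0.580), Mfap2 (25.6 ± 1.01), Fbln5 (10.8 ± 0.103), Fbn2 (6.75 ± 0.415), Eln (5.89 ± 0.314) and Mfap4 (4.56 ± 0.327). No neighbours in this control order had overlapping samples. In miR182 Fbln5 (14.8 ± 0.444 CPM per kb) and Mfap2 (14.3 ± 1.13) exchanged places, and their samples overlapped. The samples of Mfap2 and Fbn2 (12.5 ± 1.13 CPM per kb) overlapped as well, as did those of Eln (6.12 ± 0.618) and Mfap4 (5.06 ± 0.495). All errors here are SD with n = 3. Elastin itself thus ranked ninth of the 10 in both groups.

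Summed over the members, reads came to 9312 to 9576 CPM in control and 9101 to 9215 CPM in miR182. Fbn1 and Fbln2 together held 90.4% to 90.8% of the members' reads in control and 89.7% to 90.0% in miR182, so the sum mostly follows this pair and does not show the Fbn2, Mfap2, Fbln1 and Fbln5 differences. Control 3 was the lowest control sample for 6 of the 10 members (Eln, Fbn2, Fbln1, Mfap2, Mfap4 and Mfap5). Control 1 was the highest for 6 (Fbn2, Fbln1, Fbln2, Emilin1, Mfap4 and Mfap5). Sample miR182 3 was the highest miR182 sample for 5 (Eln, Fbn1, Fbn2, Mfap2 and Mfap4). Sample miR182 1 was the lowest for 5 (Eln, Fbn1, Fbn2, Emilin1 and Mfap2) and the highest for 4 (Fbln1, Fbln2, Fbln5 and Mfap5).

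Read depth was similar in both groups, with 25869810 to 26484794 gene reads in control and 25960631 to 28796712 in miR182. Markers were read as lists with summed levels. Adipocyte markers, Adipoq and Fabp4 among them, were present in every sample, and 6 of 8 were lower and 1 was higher by adjusted p (11828 to 12567 CPM in control, 8069 to 9133 in miR182). Fabp4 was called lower at -0.68 on the log2 scale, Lep was the higher gene, and Plin1 did not pass. Most of the sum was Lpl and Fabp4. Smooth muscle and pericyte markers were higher in 5 of 7 tested and lower in none (3570 to 3744 CPM in control, 4275 to 4636 in miR182). Most of this sum was Acta2 and Tagln, with means of 2364 and 1123 CPM in control and 2891 and 1277 CPM in miR182. Myh11 and Des did not pass the adjusted p, and Rgs5, with at most 9 reads in any sample, was not tested. Of 7 progenitor and fibroblast markers tested, 4 were lower and 1 was higher (2463 to 2505 CPM in control, 2211 to 2348 in miR182), with Cd34, Pdgfra and Pi16 called lower. Endothelial (8.13 to 9.27 CPM in control, 5.09 to 5.74 in miR182) and macrophage markers (14.5 to 15.6 and 12.4 to 15.8) were low. Cldn5 of endothelium had no read in any sample, Ptprc of leukocytes had 0 to 4, and 1 of 3 endothelial and 1 of 4 macrophage markers tested were called lower. Mesothelial markers summed to 23.3 to 24.3 CPM in control and 35.1 to 46.7 in miR182, nearly all from Krt19, which was called higher, while Msln and Upk3b had at most 11 reads in any sample. The 4 globin genes had no reads. The part of these marker differences in the results for the members was not tested.

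Other genes of the same structures were read from lists by role. Among other fibulins, emilins and microfibril-associated genes, 9 of 11 could be tested, 4 were called lower and none higher, with a median log2 fold change of -0.064 over the list. By adjusted p the counts were the same. Efemp1, which encodes fibulin-3, fell by 0.93 on the log2 scale, with 494 ± 9.85 CPM in control and 259 ± 4.31 CPM in miR182 (SD, n = 3 each). Fbln7 fell by 1.18 on the log2 scale (SE 0.097), Emilin2, a relative of Emilin1, by 0.63 (SE 0.030), and Tnxb by 1.11 (SE 0.035). Tnxb encodes tenascin-X, a matrix protein found with collagen and elastic fibers. The emilin pair thus differed in direction, with Emilin1 higher by 0.15 on the log2 scale and Emilin2 called lower.

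Some latent TGF-beta binding proteins, the product of Ltbp2 not among them, attach the growth factor to microfibrils. Of 7 genes of this list, including the TGF-beta ligands, 1 was called lower and none higher, and by adjusted p 2 were higher and 4 lower, with a median of -0.17. The called gene was Ltbp2, whose product binds fibrillin-1 and which holds the seed match printed with those of Fbn1 and Mfap4. It was at 361, 325 and 346 CPM in control and at 154, 140.5 and 144 CPM in miR182. The miR182 samples were all far below the control samples, with a log2 fold change of -1.23 (SE 0.042) and an edgeR adjusted p of 2.58e-11. Over the pathway lists together, the seed match was found in 1 of the 10 genes called lower, none of the 2 called higher and 2 of the 43 not called.

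The enzymes that crosslink tropoelastin were higher by adjusted p for 4 of 5 genes and lower for none, and none was called. Lox, the lysyl oxidase itself, had the widest difference, from 2670 ± 59.0 to 3546 ± 43.4 CPM (SD, n = 3 each) or 0.41 on the log2 scale. Loxl2, Loxl3 and Loxl1 had log2 fold changes of 0.26, 0.25 and 0.10, and Loxl4, at 0.12, did not pass. The edgeR adjusted p of Loxl1 was 0.026, and it did not pass without control replicate 2 or 3 (0.13 and 0.076) or miR182 replicate 2 (0.0727). The median of the 5 was 0.25 beside -0.0043 over all genes. These are differences in transcript level while Eln itself did not pass any cutoff.

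Another list held genes of the ADAMTS and ADAMTS-like family, of which several, but not all, are known to bind fibrillin. Of 8 tested, 2 were called higher and none lower, and by adjusted p 2 were higher and 3 lower, with a median of -0.11. Adamtsl3, a secreted protein without a protease domain, rose from 7.47 ± 0.895 to 17.4 ± 1.53 CPM (SD, n = 3 each), or 1.22 on the log2 scale (SE 0.094). Adamts6, a protease close to ADAMTS10, was called at 0.62 (SE 0.069). Its call was lost without control replicate 1, control replicate 2 or miR182 replicate 1, where the value was 0.58, 0.58 and 0.57.

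Among proteases that can degrade elastin, 4 of 9 had enough reads, 2 were called lower and none higher, and by adjusted p 3 were lower, with a median log2 fold change of -0.38. Mmp2, gelatinase A, fell from 711 ± 14.8 to 400 ± 10.7 CPM (SD, n = 3 each), or by 0.83 on the log2 scale, and Ctsk, cathepsin K, fell by 0.64 (SE 0.029). The untested genes included Mmp12, the macrophage elastase, with 1 to 10 reads per sample, and Elane, neutrophil elastase, with 2 to 12. Of 5 proteoglycans that bind elastic fibers, Dcn and Lum, small leucine-rich proteoglycans of collagenous matrix, were called lower at -0.64 (SE 0.031) and -1.01 (SE 0.052). By adjusted p 1 of the 5 was higher and 3 were lower, and the median was -0.47.

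Cell-surface and supporting genes completed the lists. Of 7 genes for integrin subunits and furin, which trims profibrillin, 6 were higher by adjusted p and 1 was lower, with a median log2 fold change of 0.28. The count of 6 includes Furin, whose samples overlapped between the groups and whose edgeR adjusted p of 0.0318 did not pass without control replicate 2 or 3 (0.117 and 0.149) or miR182 replicate 2 or 3 (0.0629 and 0.0694), nor with upper-quartile scaling (0.054) or a replicate block (0.0507). The lower gene, Itgb3, was called at -1.39 on the log2 scale, with 17.6 ± 0.903 CPM in control and 6.71 ± 0.557 CPM in miR182 (SD, n = 3 each). The elastin receptor complex had 2 of 3 genes lower by adjusted p and none called, with a median of -0.13 and Glb1 the widest at -0.14 (SE 0.030). Its elastin-binding product is a splice form that gene counts do not separate. Of 7 genes behind inherited cutis laxa and related disease, 4 were higher and 1 lower by adjusted p and none was called, with Slc2a10, a glucose transporter gene mutated in arterial tortuosity syndrome, the widest at -0.50 (SE 0.060), and the median was 0.12. Among the 4, Atp6v0a2, a proton pump subunit gene at 0.12, had an edgeR adjusted p of 0.0252 that did not pass without control replicate 1 or 3 (0.0639 and 0.0962) or miR182 replicate 2 or 3 (0.0681 and 0.0947).

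**Figure D4:**
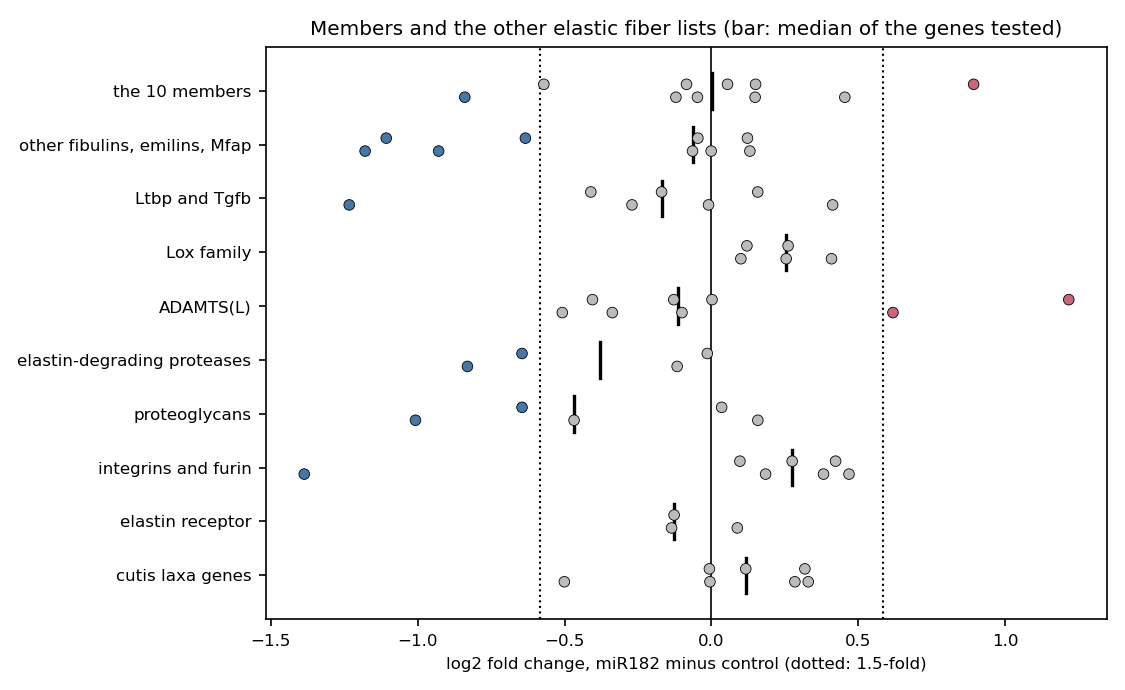
Log2 fold change of miR182 against control (x axis, dotted lines at 1.5-fold) for each tested gene of the 10 members and of the 9 other lists. Red points were called higher, blue points called lower, grey points not called, and black bars mark list medians. The member median lies at 0.0039, and the 5 lysyl oxidase genes all lie right of 0.

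Promoter windows of 300 bases around the start of transcription were given by RefSeq on GRCm38.p6 for 6 of the 10 members (9 windows), and letters were searched on both strands. A GC box (CCGCCC or GGGCGG, which are each other's reverse complement) was found in 5 of the 6 members (Fbln1, Fbln2, Fbln5, Fbn1 and Mfap2) beside 35.7% of 32851 windows over all genes. A member counted if any of its windows held the letters, so the member count and the share of windows are not on the same basis. The TATA letters TATAAA were found in none of the 6 beside 13.6% of windows, and the AP-1 letters TGANTCA in none beside 7.81%, which says only that these letters are not in these windows. Whether any of these letters bear on the levels of the members was not tested.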

How the data were processed

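RNA-seq was compared between 3 control and 3 miR182 samples. The deposited values are the authors' raw counts of reads per gene. The submitters' processing notes name bcl2fastq, TopHat2, HTSeq and mm9, and versions and the strand setting of counting are not given in the sources used here. The 5 tally lines were left out (12.7% to 13.0% of reads lay outside genes and 0.652% to 0.667% were ambiguous). Genes were tested with edgeR 4.0.16 in R 4.3.3 (TMM, filterByExpr with a minimum count of 10, glmQLFit, glmQLFTest, two-sided, no block), with Benjamini-Hochberg adjustment over 13117 genes. The SE is the log2 coefficient divided by the square root of F. Ratios of reads were tested by exact permutation. The fit was tested on simulated data. Gene positions, 3′-UTRs and exon lengths come from GENCODE M21 on GRCm38 (12959 of the tested genes matched), not mm9. The miRNA and promoters come from RefSeq. All members are named. From each other list the called genes are named or, with none called, the gene of largest difference. The seed match of Ltbp2, the Mfap3, Pycr1, Loxl1 to Loxl4, Furin and Atp6v0a2 values and the markers named are outside that rule. They were chosen after their values were seen. The members and lists were chosen with earlier results of these data known. Alternatives were limma-voom 3.58.1, DESeq2 1.42.0, other scalings and filters, glmTreat, a 2-fold cutoff, a replicate block and leaving out each sample. Python 3.11.15 drew figures.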

Additional observations from a re-analysis of the deposited data

How the results depend on the processing

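Over 15 alternatives for each of the 10 members, 146 of 150 values kept their direction and call. The 2-fold cutoff and glmTreat keep the main fold change, so the direction could not change there. Both are also stricter than the main cutoffs, so members not called in the main fit could not gain a call there. A pass by adjusted p alone was not part of this count. At a 2-fold cutoff 0 members were called higher, 0 lower and 280 of all genes were called, where Fbn2 and Mfap2 lost their calls because they lie under that fold. glmTreat called 298 genes. Leaving out 1 sample gave 1 to 2 members called lower (Fbln1 was added without miR182 replicate 1, at -0.59), and the log2 fold change of Eln lay between -0.016 (without miR182 replicate 3) and 0.13 (without miR182 replicate 1), where the cause was not tested. With a replicate block, 925 genes were called beside 977 without it. The block left the same 2 members called, and the adjusted p of Fbn1 became 0.118, so that 3 members passed as lower by adjusted p alone in place of 4. It moved no other member across either cutoff. In the other lists it ended the pass of Furin by adjusted p (0.0507). Same-numbered samples had correlations of deviations of -0.185, -0.0436 and -0.0785. Each deviation is from a group mean of few samples, so these correlations depend on each other. They cannot show whether same-numbered samples share a culture or animal. The upper-quartile scaling moved the median of all genes to -0.0163, and the share of calls that were lower was 73.1% to 75.8% under the scalings and tools tried and 82.6% under glmTreat. Of 12 called genes in the other lists, 11 were called whichever sample was left out. Under glmTreat, however, Emilin2, Ctsk, Dcn and Adamts6 lost their calls. At the 2-fold cutoff these genes and also Efemp1 and Mmp2 lost theirs. Counting error limits Mfap4 most, with 210 to 305 reads in each sample.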
